A study of Homo sapiens with 4 samples.

Results

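The core histone genes described here are 10 entries of a comparison of shPRMT1 with shNTC, chosen by symbol as entries with a HIST name of a core histone type (H2A, H2B, H3 or H4), out of 858 genes in the authors' deposited table. HIST2H2AA4, a near-identical copy of HIST2H2AA3, was left out of the 10 and is described beside it. All 10 were found in the table, 4 of type H2A, 3 of type H2B, 1 of type H3 and 2 of type H4. The study sequenced total RNA from 4 samples of MiaPaca-2, a widely used human cell line from a pancreatic carcinoma. In 2 of them a hairpin RNA targeted PRMT1 (shPRMT1), and the 2 controls carried a hairpin with no target (shNTC). The labels name no drug treatment. They name 1 PRMT1 hairpin and no rescue, so loss of PRMT1 and other effects of that hairpin cannot be told apart. Whether the replicates were separate cultures is not stated, so the authors' p-values may measure technical spread. The authors' deposited table holds ratios and p-values rather than values of single samples, so no level, replicate spread or depth stands beside a ratio, and differences between neighbours in the order of ratios have no error.

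Core histones form the protein spool of the nucleosome, with a pair each of H2A, H2B, H3 and H4 in every particle. Most are made from many small, intronless genes in clusters, which are transcribed mainly in S phase, and their messages normally end in a conserved stem-loop in place of a poly(A) tail. SLBP, the stem-loop binding protein, binds that hairpin for processing, export and translation. PRMT1 is the main enzyme that places asymmetric dimethylarginine, and the arginine near the start of histone H4 is its classical histone substrate. That reaction acts on the protein and was not measured by RNA sequencing.

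In the authors' deposited table the targeted gene, PRMT1, had a ratio of 0.356, or −1.49 on the log2 scale (p = 0.0156, adjusted p = 0.411). The header names no numerator. Each ratio is taken here as shPRMT1 divided by shNTC, the reading under which PRMT1 is lower in shPRMT1, and the opposite reading would turn round all directions given here. The table lists genes with an unadjusted p under 0.05. Its adjusted p-values imply 7640 genes tested, so 11.2% of the genes tested were listed, 6.56% as lower and 4.67% as higher in shPRMT1. At an adjusted p under 0.05 the share was 0.0131%, which is 1 gene and not a histone gene. For the 10 histone genes the adjusted p in the authors' deposited table was between 0.364 and 0.432, so none passed correction for multiple testing, and "listed lower" or "listed higher" below means an unadjusted p under 0.05 only. Since the 10 were taken from that list, that all 10 have p under 0.05 is how they were found and not a result.

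The 10 histone genes divided evenly in the authors' deposited table, with 5 listed lower and 5 higher in shPRMT1 and a median log2 fold change of −0.0043. Over all 858 listed genes 58.4% were lower and the median was −0.12. Relative to that median the histone genes were 4 lower and 6 higher, because HIST1H2AB changes sides. The differences of the histone genes were small, with ratios from 0.837 to 1.32 in the authors' deposited table. Of the 10, 9 had an absolute log2 fold change below the table's median of 0.28, and the median of the 10 was 0.19. All 10 had an absolute log2 fold change under 0.5, as did 76.2% of all listed genes. At p under 0.01, 2 of the 10 remained (20%), HIST2H2AA3 and HIST1H4L, close to the 22.3% of all listed genes that did. Among all genes tested the share was 2.5%, which is no comparison for genes taken from the list. By type, all 3 H2B entries were listed lower, 3 of 4 H2A genes and the H3 gene were listed higher, and the H4 genes had 1 on each side. No test of a difference between histone types was run. The ratios of HIST1H2BK, HIST2H2BB, HIST1H2AJ and HIST2H2AA3 may also include reads of other genes, as described below.

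**Figure D1:**
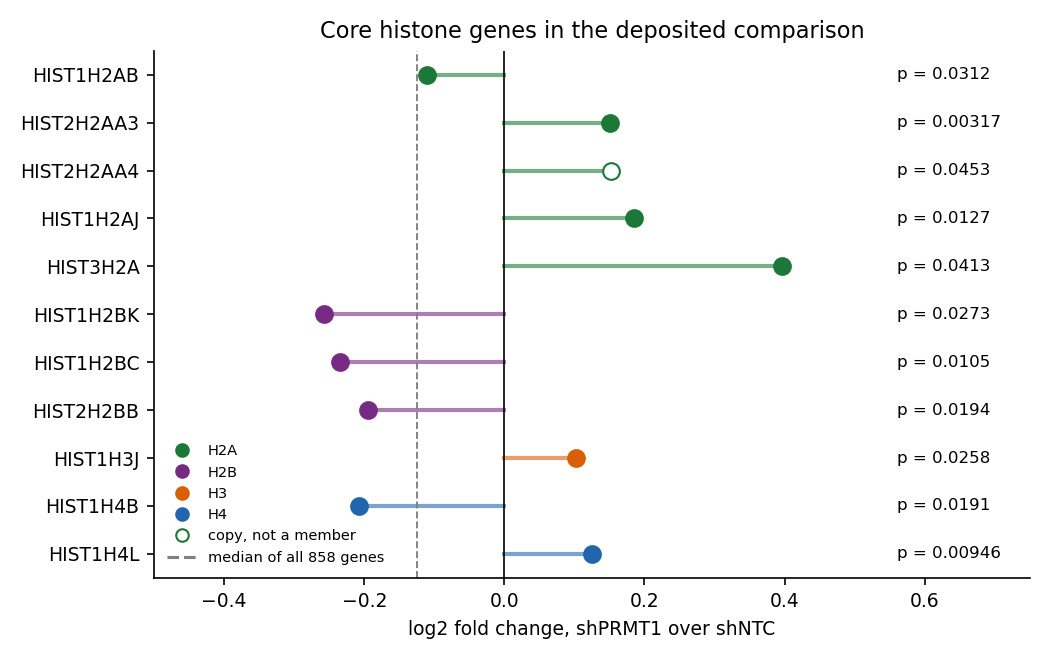
Log2 fold change (horizontal axis, shPRMT1 over shNTC) of the 10 core histone genes and of the copy HIST2H2AA4 (open circle), by histone type, with the authors' unadjusted p at the right; the dashed line is the median of all 858 listed genes, −0.12. The 3 H2B entries lie between −0.26 and −0.20, and HIST3H2A lies farthest to the right at 0.40.

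Among the H2B entries, HIST1H2BK (ENSG00000197903.6), a gene of the large histone cluster on chromosome 6, had the lowest ratio of the 10, 0.837 in the authors' deposited table (log2 −0.26, p = 0.0273). HIST1H2BC (ENSG00000180596.7), of the same cluster and encoding H2B as well, had 0.850 in the authors' deposited table (−0.23, p = 0.0105). HIST2H2BB (ENSG00000240929.2) had 0.874 in the authors' deposited table (−0.20, p = 0.0194). HIST2H2BB is annotated as a transcribed pseudogene on chromosome 1, so 2 of the 3 H2B entries stand for protein-coding genes. The 3 ratios span a narrow range.

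The promoters of the lower H2B genes HIST1H2BK and HIST1H2BC are shown because these are the coding members with the lowest ratios. Sequences are RefSeq promoters of build GRCh38.p14, from 250 bases before to 50 bases after the annotated start, written in the direction of the gene. Capitals mark matches on either strand to 3 motifs. The TATA box was searched as TATAAA. The box bound by NF-Y was searched as CCAAT. The octamer, long known from H2B promoters as a site for OCT1 (POU2F1), was searched as ATTTGCAT.

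HIST1H2BK (chr6:27146809-27147108, minus strand): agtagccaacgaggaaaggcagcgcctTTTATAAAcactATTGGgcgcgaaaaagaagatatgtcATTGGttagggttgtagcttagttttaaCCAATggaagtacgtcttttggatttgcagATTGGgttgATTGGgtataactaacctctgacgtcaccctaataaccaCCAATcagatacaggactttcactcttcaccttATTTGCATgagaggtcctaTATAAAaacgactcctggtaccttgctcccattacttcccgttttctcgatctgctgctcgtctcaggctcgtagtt

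HIST1H2BC (chr6:26123877-26124176, minus strand): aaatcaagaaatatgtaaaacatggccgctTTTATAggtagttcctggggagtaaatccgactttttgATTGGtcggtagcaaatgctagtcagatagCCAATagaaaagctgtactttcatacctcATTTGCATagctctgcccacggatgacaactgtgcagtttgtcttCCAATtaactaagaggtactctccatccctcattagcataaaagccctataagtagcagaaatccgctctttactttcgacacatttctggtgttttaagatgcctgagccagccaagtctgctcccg

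Both H2B promoters hold the octamer, beginning at position −46 from the start in HIST1H2BK and at −123 in HIST1H2BC. HIST1H2BK also has TATAAA at −27, and a further pair of TATAAA matches that overlap each other on opposite strands near the far end of the window. In HIST1H2BC the 1 TATAAA match lies on the other strand, at −220. The window of HIST1H2BC overlaps that of HIST1H2AC, the H2A gene transcribed away from it, and HIST1H2AC was not among the listed genes. The octamer occurs in 14 of 18 H2B promoters (77.8%), 11 of 16 H2A promoters (68.8%), 1 of 13 H3 promoters (7.69%) and 0 of 13 H4 promoters of the core histone genes with a RefSeq promoter, and in 1.8% of 27305 promoters of all genes. It is therefore a feature of H2A and H2B promoters in general, whether listed or not, and a match is a description and not evidence of binding.

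Among the H2A genes, HIST3H2A (ENSG00000181218.4), a gene of a small histone group on chromosome 1, had the highest ratio of the 10, 1.32 in the authors' deposited table (log2 0.40, p = 0.0413). Its p was the largest of the 10, and it is the 1 member whose absolute log2 fold change exceeded the table's median. HIST1H2AJ (ENSG00000182611.3) followed with a ratio of 1.14 listed in the authors' deposited table (0.19, p = 0.0127). HIST2H2AA3 (ENSG00000183558.5), of the histone cluster on chromosome 1, had 1.11 in the authors' deposited table (0.15) and the smallest p of the 10, 0.00317. HIST1H2AB (ENSG00000137259.2) was the H2A gene on the other side, with a ratio of 0.926 listed in the authors' deposited table (−0.11, p = 0.0312), though at 0.0146 on the log2 scale relative to the table's median. These genes encode canonical H2A, and their coding sequences are 81.2% to 86.8% identical in bases over their length.

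The copy HIST2H2AA4 (ENSG00000203812.2) stood at 1.11 in the authors' deposited table (log2 0.15), almost that of HIST2H2AA3. Its p in the authors' deposited table was 0.0453, 14.3 times that of HIST2H2AA3. The coding sequences of both copies are identical in all 393 bases, so reads within them fit both copies equally, and the 2 rows are not separate measurements. The identifiers also differ between annotations: ENSG00000203812, the row named HIST2H2AA4, carries the name HIST2H2AA3 in GENCODE 29.

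The promoter of HIST3H2A is shown because this gene had the highest ratio, with capitals as above.

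HIST3H2A (chr1:228457824-228458123, minus strand): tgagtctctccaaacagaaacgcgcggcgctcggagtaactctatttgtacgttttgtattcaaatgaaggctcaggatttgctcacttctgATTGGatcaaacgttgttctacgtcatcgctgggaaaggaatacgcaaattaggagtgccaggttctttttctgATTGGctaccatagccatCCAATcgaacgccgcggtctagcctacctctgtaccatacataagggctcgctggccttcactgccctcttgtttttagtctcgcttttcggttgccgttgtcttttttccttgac

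HIST3H2A has 3 CCAAT matches and neither TATAAA nor the octamer in this window. Its window overlaps that of HIST3H2BB, the H2B gene transcribed away from it, which was not listed. The same holds for HIST1H2AJ, whose window overlaps that of the unlisted H2B gene HIST1H2BM. Overlapping windows were searched only around the members and HIST2H2AA4, so each of the 3 H2A-H2B pairs found has a listed partner by construction. In the pairs HIST1H2BC with HIST1H2AC, HIST1H2AJ with HIST1H2BM and HIST3H2A with HIST3H2BB the other partner was not listed. A gene can be unlisted because its p was at least 0.05 or because the authors did not test it, so the pairs do not show that partners differ.

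**Figure D2:**
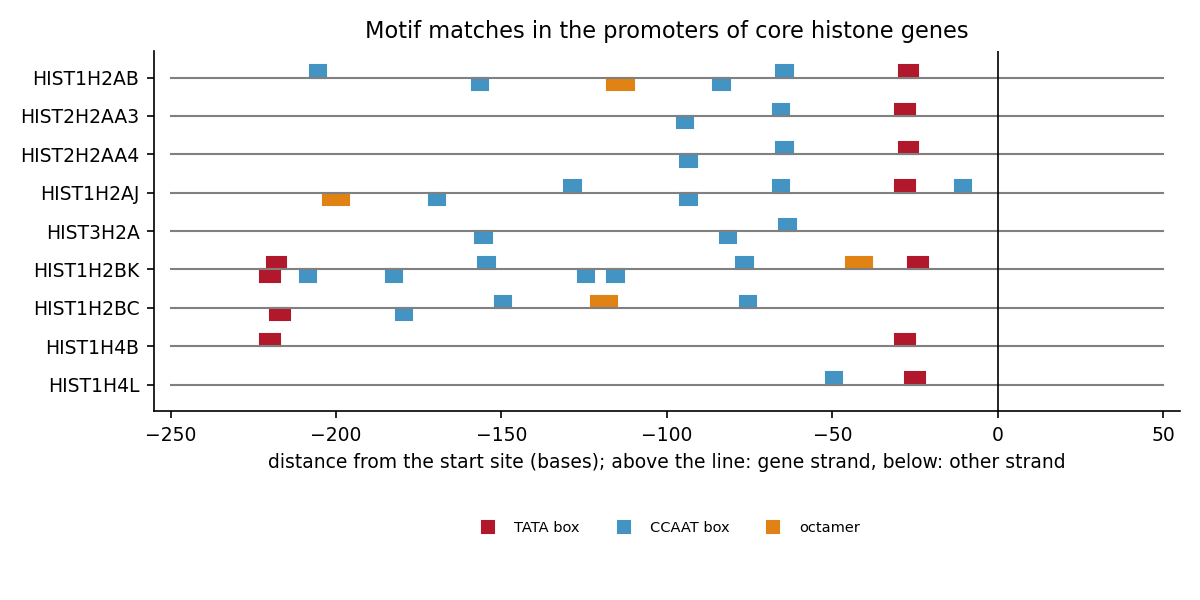
Matches to the TATA box, the CCAAT box and the octamer by distance from the start site in bases, for 8 of the 10 members and the copy HIST2H2AA4; blocks above a line are on the gene's strand, blocks below on the other. Of the 8 members, 7 have a TATA box match, 7 a CCAAT box match and 4 an octamer match. These counts take either strand and any position in the window.

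RefSeq promoters were matched for 8 of the 10 members, and HIST2H2BB and HIST1H3J have no entry. Of the 8, 7 hold TATAAA anywhere on either strand, against 41 of 60 core histone promoters (68.3%) and 12% of all 27305 promoters. In HIST1H2BC the only match is on the other strand, at −220. CCAAT, or ATTGG on the other strand, is in 7 of the 8 and in every one of the H2A, H2B and H3 promoters compared (16, 18 and 13), but in 3 of 13 H4 promoters (23.1%) and 35.7% of all promoters. The octamer is in HIST1H2BK, HIST1H2BC and HIST1H2AB, listed lower, and in HIST1H2AJ, listed higher. It is absent from HIST1H4B, listed lower, and from HIST1H4L, HIST2H2AA3 and HIST3H2A, listed higher. Whether any motif goes with direction was not tested.

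Histone H4 was represented by 2 listed genes on opposite sides. HIST1H4B (ENSG00000124529.3), near the start of the chromosome 6 cluster, stood at a ratio of 0.866 listed in the authors' deposited table (log2 −0.21, p = 0.0191). HIST1H4L (ENSG00000198558.2), near its other end, had 1.09 in the authors' deposited table (0.12, p = 0.00946). The other 13 of 15 annotated coding H4 genes were not listed, so the table gives no common direction for the messages of this PRMT1 substrate.

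The first 30 coding bases of both H4 genes are shown with those of the H2A genes, because they hold the arginine that PRMT1 methylates in H4. Capitals mark codon bases 10 to 12, the arginine at position 3 of the mature protein, counted without the initiator methionine.

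HIST1H4B: atgtctggtCGCggcaaaggcggtaaaggt
HIST1H4L: atgtctgggCGCggcaaaggcgggaagggt
HIST1H2AB: atgtctggtCGCggcaaacaaggcggtaaa
HIST1H2AJ: atgtctgggCGTggtaagcagggaggcaaa
HIST2H2AA3: atgtctggtCGTggcaagcaaggaggcaag
HIST3H2A: atgtccggtCGTggtaagcagggtggcaag

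All 6 genes have an arginine codon there, CGC in both H4 genes and HIST1H2AB and CGT in the other H2A genes. HIST1H4B and HIST1H4L, which were listed in opposite directions, share 256 of 312 coding bases (82.1%) in GENCODE 29. Of their windows of 50 bases, 7 of 389 of HIST1H4B occur in another H4 gene, HIST1H4I, 0 of 263 of HIST1H4L occur in any other gene, and none of those of HIST1H4B is shared with HIST1H4L.

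The H4 promoters are shown as a pair of one histone type with opposite directions, with capitals as above.

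HIST1H4B (chr6:26027234-26027533, minus strand): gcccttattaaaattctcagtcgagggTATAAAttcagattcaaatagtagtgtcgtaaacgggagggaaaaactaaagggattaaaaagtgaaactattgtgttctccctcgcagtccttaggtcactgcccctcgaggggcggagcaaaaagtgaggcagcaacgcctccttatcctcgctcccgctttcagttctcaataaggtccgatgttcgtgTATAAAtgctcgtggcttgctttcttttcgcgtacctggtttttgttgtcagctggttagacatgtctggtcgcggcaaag

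HIST1H4L (chr6:27873485-27873784, minus strand): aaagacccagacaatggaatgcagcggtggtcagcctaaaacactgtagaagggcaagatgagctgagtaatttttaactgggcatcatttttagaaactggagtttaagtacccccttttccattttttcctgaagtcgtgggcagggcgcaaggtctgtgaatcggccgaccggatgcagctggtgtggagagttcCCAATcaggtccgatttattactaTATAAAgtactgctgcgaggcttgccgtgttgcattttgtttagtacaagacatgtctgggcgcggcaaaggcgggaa

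Both have TATAAA close to the start, at −31 in HIST1H4B and at −28 in HIST1H4L. HIST1H4L has 1 CCAAT match, at −52, and HIST1H4B has none. Neither holds the octamer.

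HIST1H3J (ENSG00000197153.3), the 1 H3 gene, lies near the far end of the chromosome 6 cluster and stood at a ratio of 1.07 listed in the authors' deposited table (log2 0.10, p = 0.0258). This is the smallest absolute difference of the 10, at position 73 of 858 in the authors' deposited table when genes are ordered from the smallest. The other 14 of 15 annotated coding H3 genes were not listed. In GENCODE 29 HIST1H3J, which also has a noncoding transcript with 2 exons, overlaps the H2A gene HIST1H2AM on the same strand. Reads of both genes may be shared if an exon lies in the overlap, which was judged by gene spans only.

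**Figure D3:**
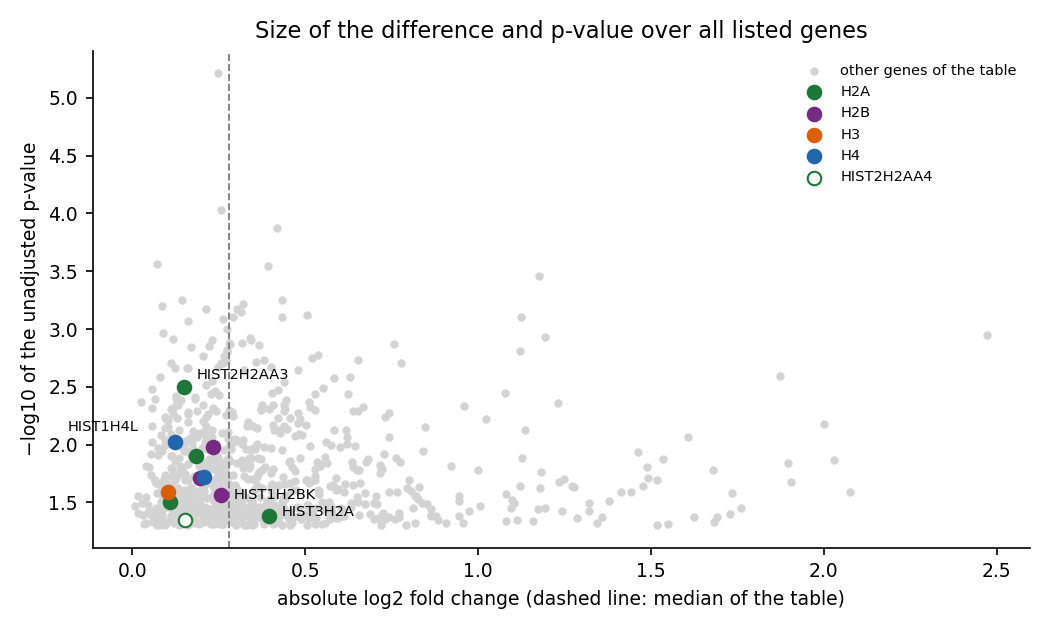
Absolute log2 fold change (horizontal axis) and −log10 of the unadjusted p (vertical axis) of all 858 listed genes, with core histone genes coloured by type and the copy HIST2H2AA4 open; the dashed line is the median of the table, 0.28. Except for HIST3H2A at 0.40, the histone genes lie left of that line.

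The 3' stem-loop was searched in GENCODE 29 transcripts as a run of 16 bases with arms of 6 bases that pair, the first arm opening with GG and closing with CT, around a loop of 4 bases that opens with TTT. It is in 35 of 19907 protein-coding genes (0.176%), 30 of which are core histone genes. Of the 65 coding core histone genes 30 held it, a count limited by exact matching and by models ending at the stop codon. Among the 10 members the stem-loop was found in 4, shown with the 4-base loop in capitals.

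HIST1H4B: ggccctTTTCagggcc
HIST1H2BC: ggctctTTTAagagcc
HIST2H2AA3: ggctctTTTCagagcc
HIST3H2A: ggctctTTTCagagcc

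HIST1H4B differs from the others in its stem and HIST1H2BC in the last base of its loop. HIST1H2BC has a further coding transcript, of 2 exons and 659 bases, without the stem-loop, beside the 1-exon form of 571 bases with it. All 4 annotated transcripts with the stem-loop continue past it, by 390 bases in HIST3H2A, 116 in HIST1H2BC, 86 in HIST1H4B and 35 in HIST2H2AA3. HIST2H2BB has no stem-loop in either of its transcripts, while for HIST1H2BK, HIST1H2AB, HIST1H2AJ, HIST1H3J and HIST1H4L the coding models end at the stop codon and cannot show one. The 4 members with an annotated stem-loop were listed in both directions, HIST1H4B and HIST1H2BC lower and HIST2H2AA3 and HIST3H2A higher. The library kit named in the labels is one for total RNA. Which transcript form gave the reads is not known from the table.

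How far each ratio belongs to 1 gene varied with its sequence, as shown with windows of fixed length because the labels give no read length. All 500 windows of 50 bases of HIST2H2AA3 occur in HIST2H2AA4, and 283 of 338 (83.7%) of HIST1H2AJ occur in HIST1H2AI. For HIST1H2BK 246 of 332 windows (74.1%) occur in another gene, most often H2BFS, and 28.4% of its windows of 100 bases. HIST2H2BB shares 94.7% of the windows of its longer transcript, chiefly with AC239798.4, a noncoding gene that overlaps it on the same strand. For these 4 genes the ratios are uncertain, since the authors' counting could split shared reads, and 2 were listed lower and 2 higher in the authors' deposited table. The other 6 shared under 10% of their windows. HIST1H2AB, HIST1H3J and HIST1H4L shared none, HIST3H2A 0.591%, HIST1H4B 1.8% and the longer transcript of HIST1H2BC 8.52%. For HIST1H2BK, HIST1H2AJ, HIST1H2AB, HIST1H3J and HIST1H4L only coding sequence was searched, so sharing of the rest of their messages is unknown. The noncoding transcript of HIST1H3J was left out. The 6 genes that shared under 10% were 3 lower and 3 higher in the authors' deposited table. Whether sharing goes with direction was not tested, and so few genes could not show it.

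**Figure D4:**
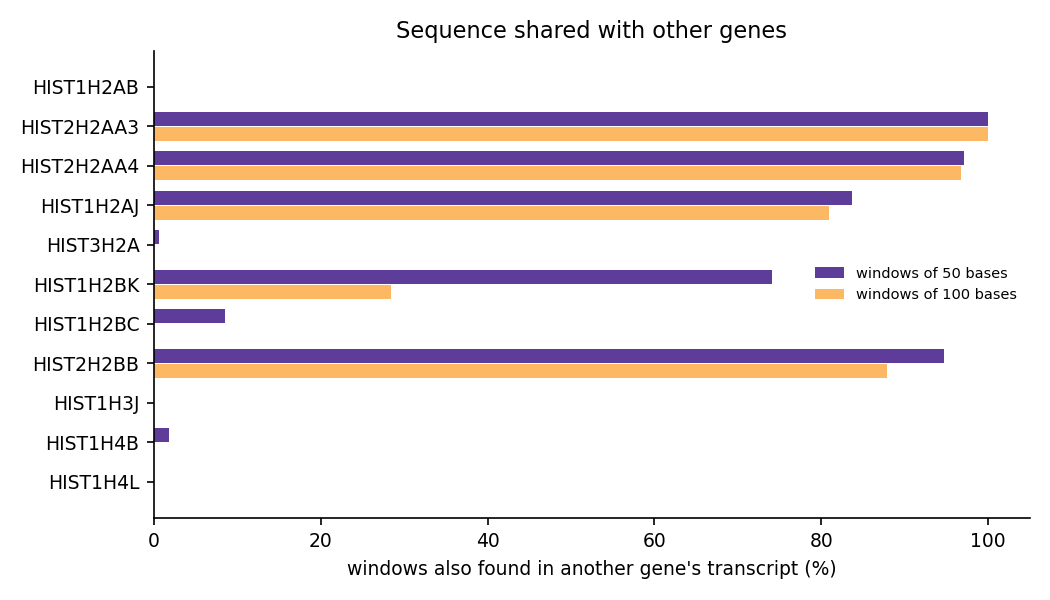
Share of windows of each gene's longest coding or pseudogene transcript (horizontal axis, %) that also occur in a transcript of another gene, for windows of 50 bases (purple) and 100 bases (yellow). HIST2H2AA3, its copy, HIST2H2BB, HIST1H2AJ and HIST1H2BK stand above 70% at 50 bases, and the other 6 below 10%.

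RefSeq annotates 82 core histone genes and pseudogenes under older HIST symbols, 58 on chromosome 6 and 21 on chromosome 1. In order along chromosome 6, HIST1H4B, HIST1H2AB, HIST1H2BC and HIST1H2BK are the 8th, 10th, 15th and 39th, and all 4 were listed lower (HIST1H2AB not relative to the table's median). HIST1H2AJ, HIST1H4L and HIST1H3J are the 46th, 55th and 56th, and all 3 were listed higher. HIST1H4L and HIST1H3J are neighbours in this order, and for the other 8 members neither of the nearest genes that RefSeq annotates as protein-coding was listed. For HIST2H2BB, 1 of these lies on the far side of a gap of 22383773 bases. On chromosome 1 HIST2H2BB is the third and was listed lower, while HIST2H2AA3 and HIST3H2A, the 9th and 19th, were listed higher. The order is that of GRCh38.p14 and serves only to name neighbours. With 7 listed genes on chromosome 6 and its 51 other core histone genes unlisted, no test of a trend with position was run.

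**Figure D5:**
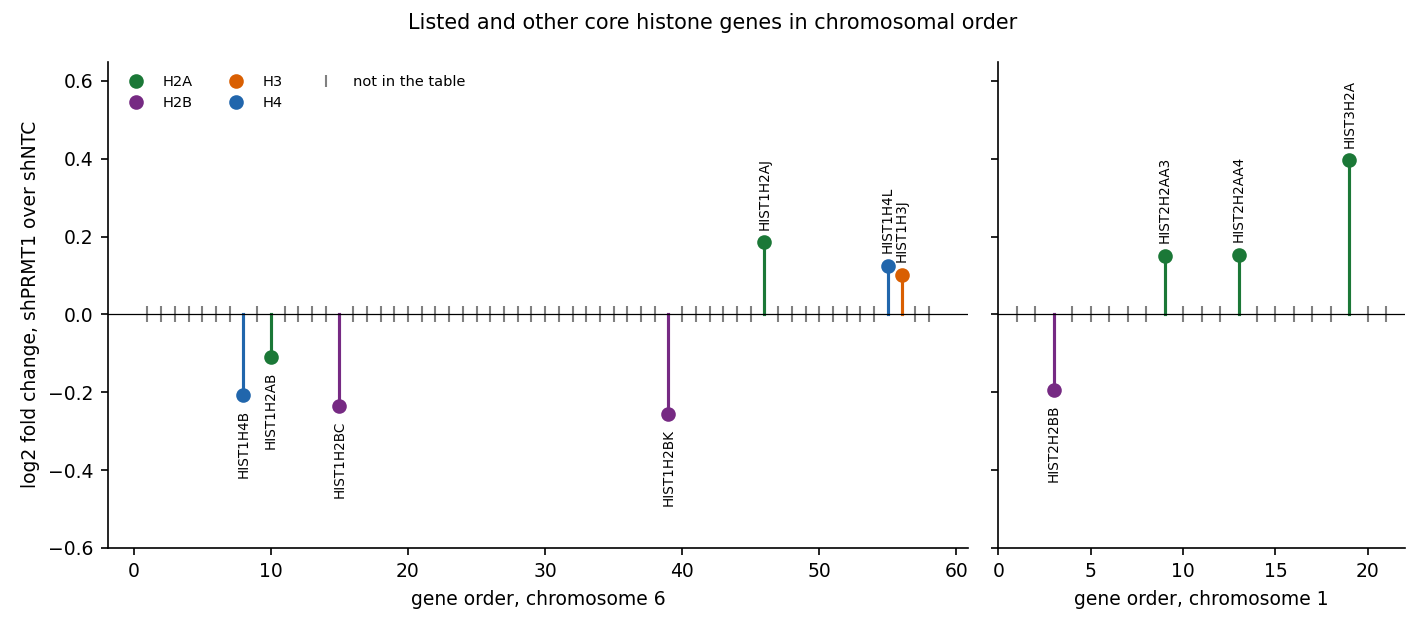
Log2 fold change (vertical axis, shPRMT1 over shNTC) of listed core histone genes by their order among core histone genes and pseudogenes on chromosome 6 (left, 58 genes) and chromosome 1 (right, 21 genes); ticks are genes that were not in the table. The 4 listed genes up to position 39 on chromosome 6 are below 0 as deposited (HIST1H2AB, at −0.11, is above the table's median of −0.12) and the 3 from position 46 on are above 0.

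Most core histone genes were not listed. Of 65 annotated coding core histone genes 10 were listed with HIST2H2AA4 included, or 15.4%, beside 11.2% of all genes tested. How many of the 65 were tested is unknown. By type the table held 5 of 17 H2A genes (29.4%), 2 of 18 H2B genes (11.1%), 1 of 15 H3 genes (6.67%) and 2 of 15 H4 genes (13.3%), and of 17 pseudogenes it held HIST2H2BB. The H2A count is 4 without the copy. Of other histone genes, 0 of 10 linker histone genes and 1 of 10 replacement variants were listed. The variant was H2AFJ, of type H2A, with a ratio of 0.751 listed in the authors' deposited table (log2 −0.41, p = 0.0474), a larger difference than that of any of the 10.

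Among genes that make and handle histone messages, how many were tested is unknown, so their counts are given beside the 11.2% of all genes tested and nothing is read from them. None of 10 transcription factors and cell-cycle regulators of histone genes (among them NPAT, the coactivator of the histone locus body) and none of 18 genes of histone mRNA processing and turnover (among them SLBP) were in the table. Of 24 histone chaperones and import factors 1 was listed (4.17%). CABIN1, a partner of the HIRA chaperone of H3.3, stood at 1.40 in the authors' deposited table (log2 0.48, p = 0.00815). Of 16 enzymes, partners and readers linked to the H4 tail 3 were listed (18.8%), among them PRMT1, the targeted gene. WDR77, the partner of PRMT5, which makes symmetric dimethylarginine on H4 and H2A, had 0.830 in the authors' deposited table (−0.27, p = 0.00553). SUV420H1, an H4 lysine methyltransferase, had 1.47 in the authors' deposited table (0.56, p = 0.0370).

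S-phase genes, in whose phase most core histone messages are made, had 4 of 29 listed (13.8%). The replication fork protein TIPIN stood at a ratio of 1.34 listed in the authors' deposited table (log2 0.43, p = 0.00786), the GINS subunit GINS1 had 1.33 (0.41, p = 0.0164) and the primase subunit PRIM1 had 1.12 (0.17, p = 0.00883). ORC6, of the origin recognition complex, had 0.929 in the authors' deposited table (−0.11, p = 0.0315). Of 10 S-phase checkpoint genes the kinase WEE1 was listed, with a ratio of 1.30 listed in the authors' deposited table (0.37, p = 0.0345). WEE1 is known to phosphorylate H2B and thereby to end histone transcription late in S phase. These shares lie near the 11.2% of all genes tested, and whether a difference in S-phase cells goes with the histone ratios was not tested.

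Compared with other listed genes of similar build, the histone genes had smaller differences in the authors' deposited table. The other 23 coding genes with a longest transcript of at most 1000 bases had a median absolute log2 fold change of 0.32, with 16 lower and 7 higher. The 8 other single-exon coding genes had 0.39, with 5 lower and 3 higher. The 10 histone genes and HIST2H2AA4 together had 0.19, with 5 lower and 6 higher. These are descriptions of genes chosen for p under 0.05, with no test between them.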

How the data were processed

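Total RNA of MiaPaca-2 cells was sequenced in 2 shPRMT1 and 2 shNTC samples, grouped by title. The submitters' processing notes name build hg19 and, in no stated role, deepTools, edgeR 3.36.0, HISAT2 2.2.1, StringTie 2.2.1 and Trim Galore 0.6.7. The test, the normalization and the gene filter are not given in the sources used. The labels' extraction text also describes chromatin immunoprecipitation, and the samples were treated as RNA by their molecule, library source and kit. The authors deposited a ratio (fold change) per gene, its log2 value, a p-value and a q-value (adjusted p-value), and no test of samples was run, since the count model foreseen in the design needs other values. The depth per sample is unknown and no interval is given. The members and gene lists were chosen with earlier results of these data known. Named genes were all members, HIST2H2AA4, PRMT1, up to 4 listed genes per list, and the annotated coding genes next to each member, by whether they were listed.

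Since a Benjamini-Hochberg adjusted p is p times the number of tests over rank, that number could be solved for: 7640, within 0.01, at 52 of the 53 distinct adjusted values. That step was tested on simulated data of 7640 genes for the comparison of shPRMT1 with shNTC and recovered the number in 50 of 50 tables. The simulated tables were built with that formula and that number, so this checks the arithmetic and not how the authors adjusted. Transcripts and gene types came from GENCODE 29, and names, gene order and promoters from RefSeq GRCh38.p14, with the first start per gene. Members were matched by symbol, because the identifiers of 6 of the 11 histone rows differ from those of the same names in GENCODE 29. Neither is the authors' build, so no coordinates of the table are given. Windows and motifs were matched exactly. Marker genes of leukocytes, fibroblasts and acinar cells were listed in 0 of 5, 0 of 5 and 0 of 4 cases, and of 5 epithelial genes KRT19 was listed at a log2 fold change of −0.24 in the authors' deposited table, so the cell type could not be checked from levels. Software was Python 3.11.15, pandas 2.3.3, numpy 2.4.6 and matplotlib 3.10.9.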

Additional observations from a re-analysis of the deposited data

How the results depend on the processing

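The 5 lower and 5 higher histone genes kept that count with all log2 values raised by 0.1. That shift could move no member across 0, since the lower member nearest 0, HIST1H2AB, stood at −0.11. With the table's median of −0.12 subtracted, 4 were lower, because HIST1H2AB turned to 0.0146. By threshold, the 10 listed histone genes became 2 at p under 0.01 (HIST2H2AA3 and HIST1H4L) and 0 at an adjusted p under 0.05, and also 0 where the absolute log2 value had to reach 0.5 or 1. Over all genes the counts were 858, 191 at p under 0.01 and 1 at an adjusted p under 0.05. Counting HIST2H2AA4 gave 11 histone genes and leaving out the pseudogene gave 9. No paired analysis was possible because the table holds no values of single samples, and for that reason normalization, low-value filter, pseudocount and leaving out replicates were not run.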
